A study of Mus musculus with 12 samples.

Results

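Vdr, the vitamin D receptor, and 9 other nuclear receptors of the intestinal epithelium (Hnf4a, Hnf4g, Nr1h4, Nr1i2, Nr1i3, Ppara, Pparg, Rxra and Nr5a2) were followed in sorted intestinal stem cells with and without the tumour suppressor Apc. The 10 genes were chosen by symbol, and all 10 had values among the 14082 gene symbols used. RNA was sequenced from Lgr5-GFP+ cells of the intestinal epithelium, sorted by flow cytometry from C57BL/6 mice. The mice were ApcFlox/Flox (Apc_KO), ApcFlox/+ (Apc_HET) or Apc+/+ (Apc_WT), with 4 libraries per genotype. All 3 genotypes carried Lgr5-CreERT2-ires-eGFP and received 1 injection of tamoxifen and then 5 days of diet containing it, and cells were collected on day 15. Cre and GFP were thus both driven from Lgr5, a Wnt target gene that marks crypt base stem cells, and the Apc_WT mice also carried Cre and received tamoxifen. The share of sorted cells in which the floxed exons were lost was not measured in the tables.

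Nuclear receptors are transcription factors that bind DNA and, in most cases, a small fat-soluble ligand such as a vitamin, bile acid or fatty acid. Many, the vitamin D receptor among them, bind DNA as a pair with a retinoid X receptor, whereas the HNF4 proteins bind as pairs of their own kind and LRH-1 binds alone. In the intestine they are known for calcium uptake, the enterocyte programme, bile acid and drug handling, fat oxidation and crypt renewal.

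The deposited coordinates placed Vdr on chr15:97854398-97912257, Hnf4a on chr2:163506655-163572969 and Nr5a2 on chr1:136842507-136960592 (GRCm38). Each of the 10 deposited loci covered at least 99.0% of the annotated gene. The 250 bases upstream of a RefSeq start site (GRCm38.p6) are shown for Vdr and Nr5a2, which had the deepest falls on the log2 scale below, for both start sites of Hnf4a, the most abundant, and for Pparg, which did not fall. They are given 5′ to 3′ on the strand of the gene. Capitals mark matches on either strand to 3 short motifs. The nuclear receptor half-site was searched as AGGTCA. The motif of the GATA factor family was searched with the letters AGATAA. The HNF1 half-site was searched with the letters GTTAAT.
Vdr, chr15:97908297-97908546, minus strand: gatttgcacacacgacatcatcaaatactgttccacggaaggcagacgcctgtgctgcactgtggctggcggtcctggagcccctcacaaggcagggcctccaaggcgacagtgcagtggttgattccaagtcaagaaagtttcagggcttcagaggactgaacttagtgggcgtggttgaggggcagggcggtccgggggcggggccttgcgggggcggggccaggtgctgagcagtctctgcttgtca
Hnf4a distal start, chr2:163506607-163506856, plus strand: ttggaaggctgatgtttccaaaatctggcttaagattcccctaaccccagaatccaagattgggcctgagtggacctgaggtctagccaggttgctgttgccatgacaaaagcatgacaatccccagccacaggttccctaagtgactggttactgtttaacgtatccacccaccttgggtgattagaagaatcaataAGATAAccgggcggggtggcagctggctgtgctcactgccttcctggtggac
Hnf4a proximal start, chr2:163546905-163547154, plus strand: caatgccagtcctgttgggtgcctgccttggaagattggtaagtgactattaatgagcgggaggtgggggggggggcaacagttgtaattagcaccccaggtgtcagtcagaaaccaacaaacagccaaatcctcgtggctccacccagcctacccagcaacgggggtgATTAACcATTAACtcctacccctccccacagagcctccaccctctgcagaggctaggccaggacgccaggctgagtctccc
Nr5a2, chr1:136960449-136960698, minus strand: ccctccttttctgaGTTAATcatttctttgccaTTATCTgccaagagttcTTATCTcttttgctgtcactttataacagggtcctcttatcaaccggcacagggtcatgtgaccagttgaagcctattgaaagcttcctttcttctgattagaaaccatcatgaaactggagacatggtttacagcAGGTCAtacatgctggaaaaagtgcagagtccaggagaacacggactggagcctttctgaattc
Pparg, chr6:115360894-115361143, plus strand: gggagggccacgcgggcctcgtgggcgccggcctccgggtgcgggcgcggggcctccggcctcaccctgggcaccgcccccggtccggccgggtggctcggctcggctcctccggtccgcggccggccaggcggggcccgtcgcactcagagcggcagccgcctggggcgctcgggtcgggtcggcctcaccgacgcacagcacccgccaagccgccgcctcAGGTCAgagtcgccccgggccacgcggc

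RefSeq windows of this length were found for 9 of the 10 receptors, 14 windows in all. Nr5a2 had 2 windows and Pparg 3, of which the first is shown for each gene. Of 32851 mouse windows of this length, 14.0% held the half-site, 9.99% the GATA motif and 6.43% the HNF1 motif. Motifs of TCF/LEF factors, which act with beta-catenin, were searched as CTTTGAT, found in 3.21% of all windows, and with a last letter of A, found in 4.46%. An HNF4 motif, searched as CAAAGTCCA, was found in 0.384%. Both strands were searched, and matches did not overlap in the windows shown. The Vdr window held none of these motifs. The Nr5a2 window shown held 1 half-site, 2 GATA motifs and 1 HNF1 motif, the distal Hnf4a window held 1 GATA motif, and the proximal Hnf4a window held 2 HNF1 motifs, both on the opposite strand. The Pparg window shown held 1 half-site. The other Nr5a2 window held none of these motifs, and of the other Pparg windows the second held 1 half-site and the third none. Direct repeats of the half-site with a spacer of 3 bases, the form known for the vitamin D receptor, or of 1 base were in none of the 5 windows shown. These matches describe letters only. GC content differed widely among the windows shown, with 61.2% for Vdr, 51.2% and 57.6% for the distal and proximal Hnf4a starts, 43.2% for Nr5a2 and 82.4% for Pparg, against a median of 52.4% over all windows.

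Libraries of a genotype correlated across genes with r of 0.913 to 0.981. The sorted cells held Lgr5 RNA in every library, at 27.0 to 65.4 FPKM in Apc_KO, 21.3 to 31.6 FPKM in Apc_HET and 20.2 to 30.01 FPKM in Apc_WT. FPKM counts fragments per kilobase of transcript, scaled to the mapped fragments of the library, so levels can be compared between genes. Apc stood at 9.94 to 17.3 FPKM in Apc_KO, 9.81 to 12.5 FPKM in Apc_HET and 6.91 to 10.48 FPKM in Apc_WT. Apc was likewise called higher in Apc_KO than in Apc_WT, by 0.58 ± 0.17 (SE, adjusted p = 0.0142), with overlapping libraries. The tables give 1 value for the whole Apc gene, so this does not check the deletion. Within Apc_KO, replicates 1 and 4 stood apart from replicates 2 and 3. Olfm4, a stem cell marker whose deposited locus covered 59.2% of the gene, had 105.9, 673.9, 702.4 and 81.7 FPKM in Apc_KO replicates 1 to 4. Top2a, a mitosis gene, had 49.9, 141.4, 147.1 and 53.8 FPKM in the same libraries. Results are therefore also given without either pair of Apc_KO libraries. The deposited values do not state sequencing depth, so no counting intervals are given.

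Of the 10 receptor genes, 9 were lower in Apc_KO than in Apc_WT cells and none was higher, as tested with limma on log2(FPKM + 1) at an adjusted p under 0.05. The fall was deepest for Vdr, whose mean in Apc_KO cells was 7.04% of that in Apc_WT cells, and mildest for Rxra, the shared partner, which kept 45.0%. Pparg was the exception, with a mean of 10.1 FPKM in Apc_KO and 6.71 FPKM in Apc_WT cells that did not pass the test. In all 9 genes the Apc_KO libraries lay below every Apc_WT library. The counts stand against a wide background, since 17.7% of the 12962 tested genes were called lower, 27.9% were called higher, and 16.0% had all Apc_KO libraries below all Apc_WT libraries. The median difference of the 10 receptors was -2.01, against 0.12 over all tested genes. All 18 enterocyte marker genes were lower in the same comparison, with the summed levels given beside the HNF4 targets, and their part in the receptor falls was not tested. In RNA from a sorted population, fewer cells of a type and less RNA per cell cannot be told apart.

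**Figure D1:**
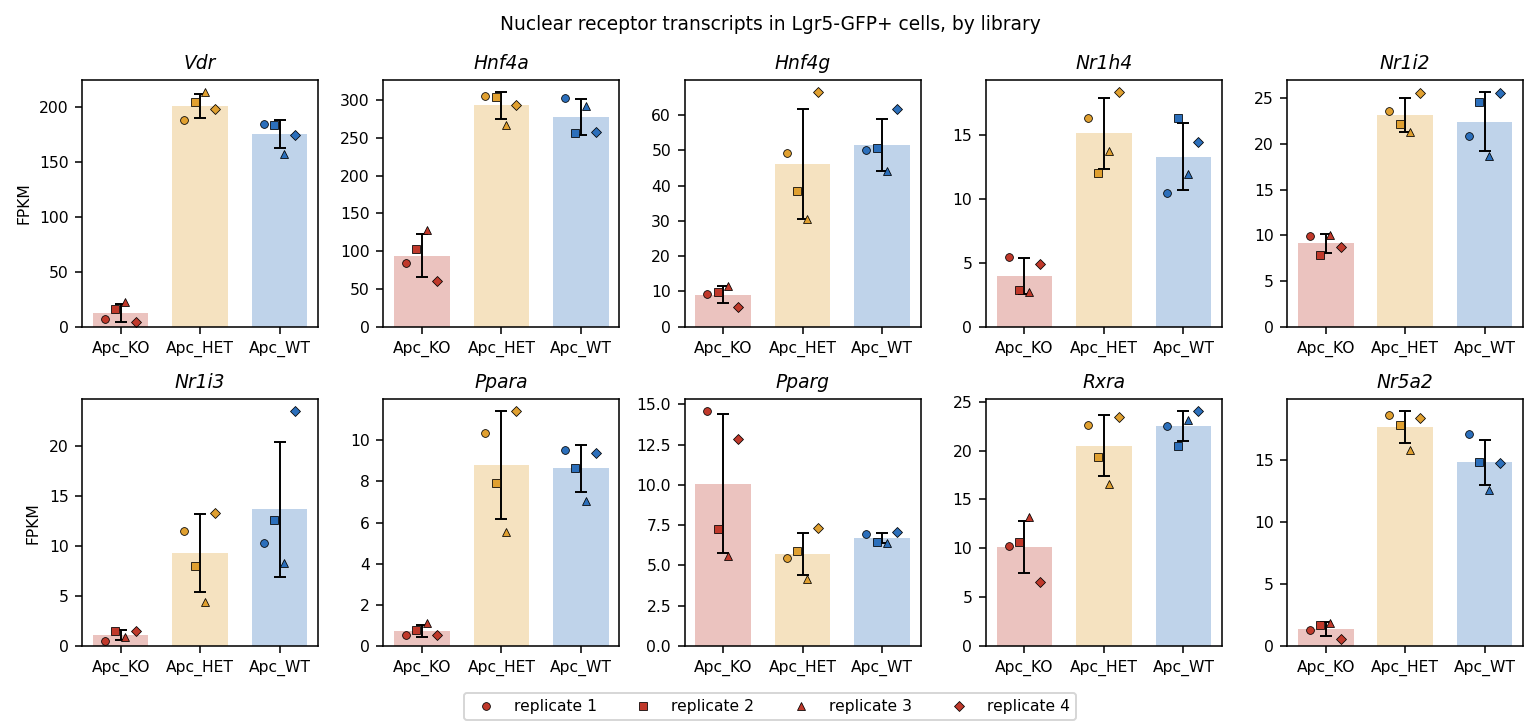
FPKM of the 10 receptor genes in each library, with 1 panel per gene, genotypes on the horizontal axis, 1 symbol per replicate, bars for the mean and whiskers for 1 SD (n = 4). In 9 panels the 4 Apc_KO libraries lie below all Apc_HET and Apc_WT libraries, and in the Pparg panel Apc_KO replicates 1 and 4 lie above all others.

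The vitamin D receptor binds calcitriol and is known for switching on calcium absorption in enterocytes. Vdr was at 6.89, 15.9, 22.1 and 4.4 FPKM in Apc_KO replicates 1 to 4, at 188.0, 204.2, 213.7 and 198.2 FPKM in Apc_HET, and at 184.9, 183.5, 157.4 and 174.8 FPKM in Apc_WT. Every Apc_KO library was far below the lowest library of the other genotypes, and Apc_KO replicates 1 and 4 were the lowest. Means were 12.3 ± 8.18 FPKM in Apc_KO, 201.0 ± 10.8 FPKM in Apc_HET and 175.1 ± 12.6 FPKM in Apc_WT (SD, n = 4 each). The log2 difference between Apc_KO and Apc_WT was -3.95 ± 0.35 (SE, adjusted p = 2.70e-06). It was -3.15 without Apc_KO replicates 1 and 4 and -4.75 without replicates 2 and 3, and the call held both ways. Among all tested genes Vdr had the 23rd deepest fall in this comparison. All 4 Apc_HET libraries of Vdr were above all 4 Apc_WT libraries, with a difference of 0.20 ± 0.35 that did not pass the test (adjusted p = 1), and 5.46% of tested genes were ordered in the same way.

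Rxra encodes retinoid X receptor alpha, the partner of the vitamin D receptor, FXR, PXR, CAR and the PPARs. Its level was 10.2, 10.6, 13.2 and 6.57 FPKM in Apc_KO, 22.6, 19.3, 16.6 and 23.4 FPKM in Apc_HET, and 22.6, 20.4, 23.1 and 24.0 FPKM in Apc_WT. The Apc_KO libraries did not overlap with the other genotypes, and the difference between Apc_KO and Apc_WT was -1.11 ± 0.17 (SE, adjusted p = 0.00022). The ratio of Vdr to Rxra FPKM was 0.67 to 1.68 in Apc_KO, 8.31 to 12.9 in Apc_HET and 6.82 to 8.98 in Apc_WT libraries. The ratio in every Apc_KO library was below that in every other library. Rxrb, the second retinoid X receptor with values, differed by -0.04 between Apc_KO and Apc_WT and was not called.

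HNF4 alpha and HNF4 gamma are paired-up factors that hold enhancers of enterocyte genes open. Hnf4a, the most abundant of the 10 in every genotype, had 84.5, 102.5, 128.6 and 60.9 FPKM in Apc_KO, 305.6, 304.9, 267.4 and 294.1 FPKM in Apc_HET, and 303.1, 257.1, 292.7 and 257.8 FPKM in Apc_WT. Hnf4g had 9.24, 9.83, 11.4 and 5.66 FPKM in Apc_KO, 49.3, 38.4, 30.5 and 66.6 FPKM in Apc_HET, and 49.98, 50.6, 44.1 and 61.8 FPKM in Apc_WT. Both genes were lower in each Apc_KO library than in any library of the other genotypes, and Apc_HET and Apc_WT overlapped. Between Apc_KO and Apc_WT, Hnf4a differed by -1.60 ± 0.19 (adjusted p = 2.92e-05) and Hnf4g by -2.42 ± 0.24 (SE, adjusted p = 5.82e-06). Apc_KO cells kept 33.9% of the Apc_WT mean of Hnf4a and 17.5% of that of Hnf4g. Hnf4a exceeded Hnf4g 9.14 to 11.2 times in Apc_KO, 4.42 to 8.76 times in Apc_HET and 4.17 to 6.64 times in Apc_WT libraries, and these Apc_KO ratios did not overlap with the others.

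Nr1h4, Nr1i2 and Nr1i3 encode FXR, PXR and CAR, receptors for bile acids and foreign compounds. Nr1h4 had 5.42, 2.87, 2.70 and 4.91 FPKM in Apc_KO, 16.3, 12.03, 13.7 and 18.3 FPKM in Apc_HET, and 10.4, 16.3, 11.97 and 14.4 FPKM in Apc_WT. Its Apc_KO libraries were the lowest, with replicates 1 and 4 above replicates 2 and 3, and it fell by 1.55 on the log2 scale (SE 0.209, adjusted p = 7.39e-05). Nr1i2 had 9.89, 7.81, 10.1 and 8.74 FPKM in Apc_KO, 23.6, 22.2, 21.3 and 25.6 FPKM in Apc_HET, and 20.8, 24.6, 18.6 and 25.6 FPKM in Apc_WT. It varied little within Apc_KO, whose libraries were again the lowest, and it differed from Apc_WT by -1.20 ± 0.12 (SE, adjusted p = 6.54e-06). The deposited Nr1i2 locus also holds Gsk3b, which had 14.3, 12.4, 15.2 and 6.33 FPKM in Apc_KO and 11.8, 9.83, 11.2 and 9.17 FPKM in Apc_WT, so the genes at this locus did not move together.

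Nr1i3 had 0.518, 1.53, 0.894 and 1.46 FPKM in Apc_KO, 11.5, 8.04, 4.41 and 13.3 FPKM in Apc_HET, and 10.3, 12.6, 8.31 and 23.5 FPKM in Apc_WT. The Apc_KO libraries were lowest, and the Apc_HET and Apc_WT libraries were the most scattered of the 10 receptors. It differed from Apc_WT by -2.73 ± 0.34 (SE, adjusted p = 3.93e-05), and Apc_KO kept 8.04% of the Apc_WT mean. Tomm40l, which shares the deposited locus, had 12.2, 17.7, 16.9 and 23.3 FPKM in Apc_KO and 18.5, 21.7, 20.5 and 22.6 FPKM in Apc_WT, which overlap. The sources used here do not say whether reads were assigned by strand, so reads of overlapping genes at both loci may have been shared.

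PPAR alpha switches on fatty acid oxidation, and PPAR gamma is best known for fat storage and for differentiation of the colonic epithelium. Ppara had 0.525, 0.778, 1.09 and 0.517 FPKM in Apc_KO, 10.3, 7.91, 5.56 and 11.4 FPKM in Apc_HET, and 9.51, 8.65, 7.04 and 9.37 FPKM in Apc_WT. It was near the floor of the tested range in every Apc_KO library, with 8.43% of the Apc_WT mean and a difference of -2.49 ± 0.20 (SE, adjusted p = 9.97e-07). Pparg had 14.6, 7.23, 5.61 and 12.9 FPKM in Apc_KO, 5.48, 5.87, 4.13 and 7.30 FPKM in Apc_HET, and 6.94, 6.45, 6.40 and 7.05 FPKM in Apc_WT. Apc_KO replicates 1 and 4 were the highest of all 12 libraries, whereas replicate 3 was below every Apc_WT library and replicate 2 within the Apc_HET range. The difference between Apc_KO and Apc_WT was 0.43 ± 0.25 (SE, adjusted p = 0.176). It was -0.06 without Apc_KO replicates 1 and 4 (adjusted p = 0.79) and 0.93 without replicates 2 and 3 (adjusted p = 0.0015), so the value for Pparg depended on which Apc_KO libraries were kept.

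Nr5a2 encodes LRH-1, which is known for bile acid synthesis in the liver and for renewal and steroid synthesis in intestinal crypts. It had 1.31, 1.69, 1.82 and 0.598 FPKM in Apc_KO, 18.6, 17.8, 15.8 and 18.4 FPKM in Apc_HET, and 17.1, 14.9, 12.5 and 14.7 FPKM in Apc_WT. The groups were widely apart, Apc_KO kept 9.15% of the Apc_WT mean, and the difference of -2.77 ± 0.17 (SE, adjusted p = 1.27e-07) had the smallest p of the 10 receptors. With a pseudocount of 0.1 in place of 1, the difference grew to -3.45 for Nr5a2, -3.45 for Ppara and -3.51 for Nr1i3, since the added value weighs on genes near 0 FPKM.

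**Figure D2:**
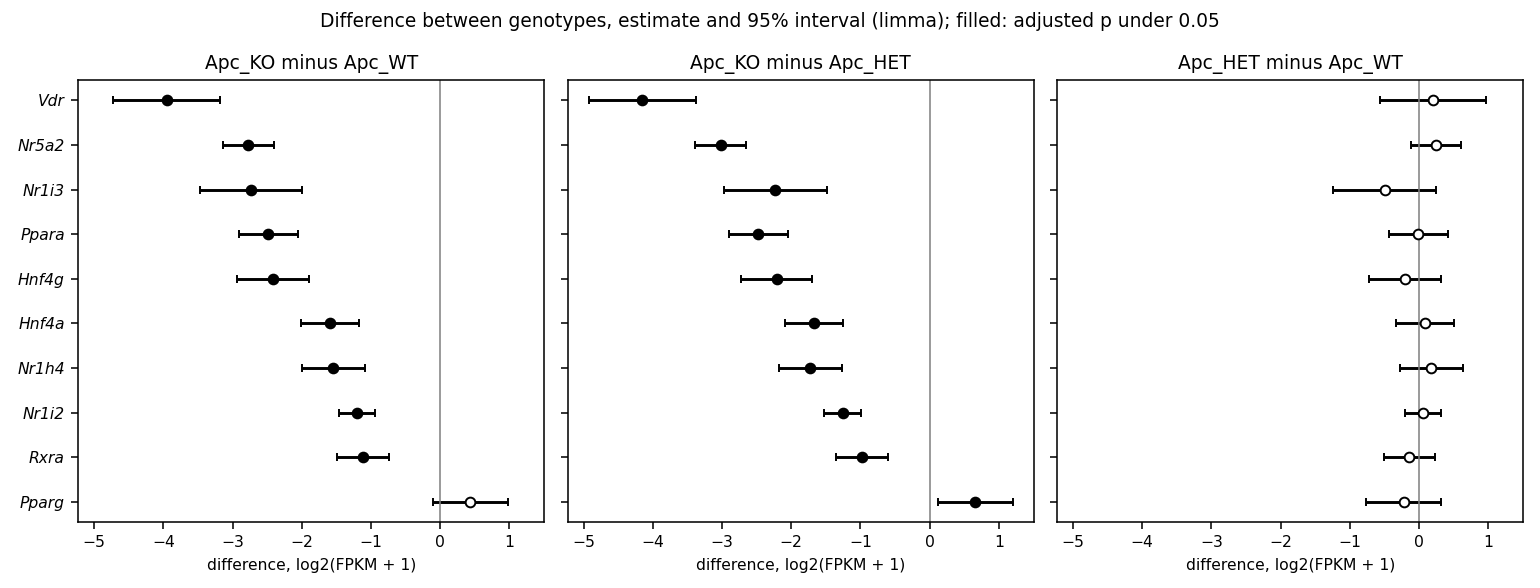
Difference in log2(FPKM + 1) between genotypes for the 10 receptors, with 95% intervals from limma and filled points for an adjusted p under 0.05. In the 2 panels with Apc_KO the intervals of 9 receptors lie left of 0, and in the panel of Apc_HET minus Apc_WT all 10 intervals cross 0.

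The comparison of Apc_KO with Apc_HET uses the same Apc_KO libraries and is set beside the first for its values. In it 9 receptors were lower and 1, Pparg, was higher, against 18.9% and 22.8% of all tested genes. In 9 receptors every Apc_KO library lay below every Apc_HET library, an order that 18.0% of genes shared. Vdr differed by -4.15 ± 0.35 (SE, adjusted p = 2.08e-06) and Nr5a2 by -3.02 ± 0.17 (SE, adjusted p = 7.31e-08), while Rxra differed by -0.97 ± 0.17 (SE, adjusted p = 0.000678). The values of the others were -1.68 for Hnf4a, -2.21 for Hnf4g, -1.72 for Nr1h4, -1.26 for Nr1i2, -2.23 for Nr1i3 and -2.47 for Ppara. Pparg differed by 0.66 ± 0.25 (SE, adjusted p = 0.0498), its libraries overlapped, and the call was lost without Apc_KO replicates 1 and 4, where the difference was 0.16 (adjusted p = 0.486). It was also lost with size factors (adjusted p = 0.0677) and with quantile normalization (adjusted p = 0.0982).

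Between Apc_HET and Apc_WT cells limma called 0 of the 10 receptors and 0 of the 12962 tested genes. An unadjusted p under 0.05 was reached by 0 receptors and by 4.33% of all genes, and the lowest unadjusted p of a receptor was 0.168, for Nr1i3. The median difference was 0.02 over the 10 receptors and 0.07 over all tested genes. The largest differences were -0.50 ± 0.34 for Nr1i3 (SE, adjusted p = 0.987), with a 95% interval of -1.24 to 0.24, and 0.25 ± 0.17 for Nr5a2 (SE, adjusted p = 0.987), with an interval of -0.12 to 0.61. The interval for Vdr was -0.57 to 0.97. Its width comes from 1 estimate of spread shared by all 12 libraries, Apc_KO included. Against the Apc_WT mean, Vdr ranged from -5.03 to -2.93 in Apc_KO libraries and from 0.10 to 0.29 in Apc_HET libraries. The interval thus does not measure the scatter of Apc_HET and Apc_WT alone. In a fit of these 2 genotypes only, 1 of the 12962 genes was called higher and 0 lower, and that gene was not a receptor. Apc_HET replicate 3 had the highest Vdr of all 12 libraries and was the lowest of the Apc_HET libraries for 8 of the 10 receptors, all but Vdr and Nr1h4. Its summed FPKM over the 18 enterocyte marker genes was 849, against 1124 to 2299 in the other Apc_HET libraries. Apc_WT replicate 3 was likewise the lowest Apc_WT library for 7 receptors, with an enterocyte sum of 2119 in an Apc_WT range of 1964 to 4841. Apc_KO replicate 4 was the lowest Apc_KO library for 6. The part of enterocytes in the receptor values was not tested.

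The order of levels also differed between genotypes. Hnf4a, Vdr and Hnf4g led in Apc_HET cells, with means of 293.0, 201.0 and 46.2 FPKM, and in Apc_WT cells, with 277.7, 175.1 and 51.6 FPKM, and their ranges did not overlap with each other in either genotype. In Apc_KO cells Hnf4a, at 94.1 FPKM, stayed apart from the rest, whereas Vdr at 12.3, Rxra at 10.1, Pparg at 10.1, Nr1i2 at 9.13 and Hnf4g at 9.04 FPKM overlapped with their neighbours in the order. Nr1h4 followed at 3.97 FPKM and did not overlap with its neighbours in the order, Hnf4g and Nr5a2, though its highest library lay above the lowest Vdr library. Nr5a2, Nr1i3 and Ppara were lowest, at 1.35, 1.10 and 0.729 FPKM, and overlapped. Summed over the 10 receptors, each library held 106.6 to 197.4 FPKM in Apc_KO, 593.2 to 676.6 FPKM in Apc_HET and 582.2 to 635.6 FPKM in Apc_WT. Hnf4a made up 57.1% to 65.1% of that sum in Apc_KO, 43.5% to 47.6% in Apc_HET and 42.0% to 50.3% in Apc_WT.

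The 4 Apc_KO libraries did not rank alike across the receptors. Replicates 1 and 4 were both below replicates 2 and 3 for 6 genes, Vdr, Hnf4a, Hnf4g, Ppara, Rxra and Nr5a2, and both above them for 2, Nr1h4 and Pparg. The order was mixed for Nr1i2 and Nr1i3. Against the Apc_WT mean, Vdr in Apc_KO replicates 1 to 4 stood at -4.48, -3.38, -2.93 and -5.03 on the log2 scale, and Nr1i2 moved over a narrower range. Olfm4 and Top2a were lower in the same pair of libraries, as given above, and their part in the receptor values was not tested. The 9 falls remained called without replicates 1 and 4 and without replicates 2 and 3.

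**Figure D3:**
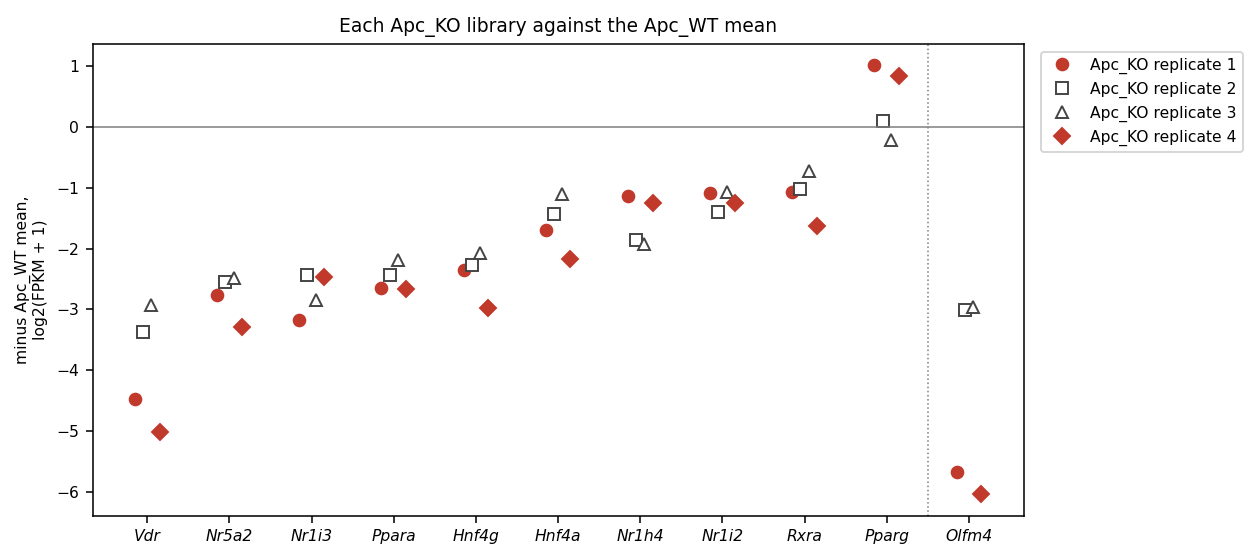
Each Apc_KO library minus the Apc_WT mean in log2(FPKM + 1), for the 10 receptors and, right of the dotted line, Olfm4, with filled red symbols for replicates 1 and 4 and open symbols for replicates 2 and 3. Replicates 1 and 4 lie below the other pair for Vdr and Olfm4 and above it for Nr1h4 and Pparg.

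The symbols whose profile over the 12 libraries was nearest to that of Vdr, by the root mean square distance of centred log2(FPKM + 1) values, were Ccl28 at 0.166, Otc at 0.296, Cps1 at 0.310, Gpr128 at 0.343 and Ccl6 at 0.350. Ccl28 encodes a mucosal chemokine, and Otc and Cps1 encode urea cycle enzymes that the small intestine uses to make citrulline. Ccl28 had 0.830, 3.10, 3.45 and 0.510 FPKM in Apc_KO replicates 1 to 4 and 33.0 to 43.5 FPKM in Apc_WT, and it shared with Vdr the low values of replicates 1 and 4. Among the other 9 receptors Nr5a2 was nearest, at 0.640, then Ppara at 0.872 and Hnf4g at 0.939, and Pparg was farthest, at 2.31. These distances describe 12 libraries that share 3 genotypes and carry no test.

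Beyond the 10 genes, 39 other nuclear receptor genes were listed, 27 had values and 26 passed the filter. In Apc_KO against Apc_WT, 6 were called higher, 7 lower and 13 were not called, with a median difference of -0.12. Over all tested genes 27.9% were called higher and 17.7% lower. With libraries scaled by size factors the counts were 5 higher and 9 lower, and with quantile normalization 4 and 9. The counts over all tested genes moved too, from 3613 higher and 2291 lower to 2864 and 2829 with size factors. With quantile normalization they were 2764 and 3043. Between Apc_HET and Apc_WT limma called 0 of the 26. Rarb and Rarg, retinoic acid receptors, rose. Rarg was at 12.8, 8.74, 8.90 and 10.8 FPKM in Apc_KO and 0.221 to 0.402 FPKM in Apc_WT. The difference was 3.10 ± 0.14 (SE, adjusted p = 1.75e-08). Rarg passed the filter only through its Apc_KO libraries, so its order of genotypes was fixed by the filter. Rarb was at 38.8, 15.0, 9.23 and 22.6 FPKM in Apc_KO and 0.516 to 0.726 FPKM in Apc_WT, a difference of 3.61 ± 0.32 (SE, adjusted p = 2.18e-06), though its deposited locus covered 37.3% of the gene. Both groups were apart for each of them, while Rara, the third of that kind, differed by 0.11 and was not called.

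Nr4a1, an orphan receptor known as an immediate early gene, was at 267.9 to 381.7 FPKM in Apc_KO, 41.8 to 360.1 FPKM in Apc_HET and 31.3 to 112.5 FPKM in Apc_WT, a difference of 2.17 ± 0.55 between Apc_KO and Apc_WT (SE, adjusted p = 0.00628) on a locus that covered 46.0% of the gene. Apc_KO and Apc_HET overlapped for it. Nr1d2, a clock repressor, rose by 0.72, and Nr2c1, an orphan receptor, by 0.35, a call that was lost with size factors (0.24, adjusted p = 0.0767) and with quantile normalization (0.19, adjusted p = 0.138). Rora, at 2.13 to 14.5 FPKM in Apc_KO and 0.237 to 2.36 FPKM in Apc_WT, was called at 1.58 with overlapping libraries on a locus of 9.78% of the gene, and is named after its values were seen.

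Among the falls, Nr2e3, best known from photoreceptors, was at 0.193, 1.98, 1.59 and 0.254 FPKM in Apc_KO and 12.5 to 14.8 FPKM in Apc_WT, a difference of -3.004 ± 0.26 (SE, adjusted p = 2.15e-06). It shared with Vdr the lowest values in Apc_KO replicates 1 and 4. Nr1h3, the oxysterol receptor LXR alpha, differed by -2.11 on a locus of 58.9% of the gene, while its relative Nr1h2 differed by 0.06 and was not called. Ppard, the third PPAR, was at 12.6 to 18.0 FPKM in Apc_KO, 42.9 to 55.4 FPKM in Apc_HET and 50.4 to 62.4 FPKM in Apc_WT, a difference of -1.84 ± 0.13 (SE, adjusted p = 3.88e-07). The 3 PPAR genes thus gave 2 falls, Ppara and Ppard, and 1 gene, Pparg, without a call. Thrb, a thyroid hormone receptor, differed by -1.72 and Nr3c2, the mineralocorticoid receptor, by -1.43. The remaining called falls, named after their values were seen, were Esrra at -1.24 and Thra at -0.68.

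**Figure D4:**
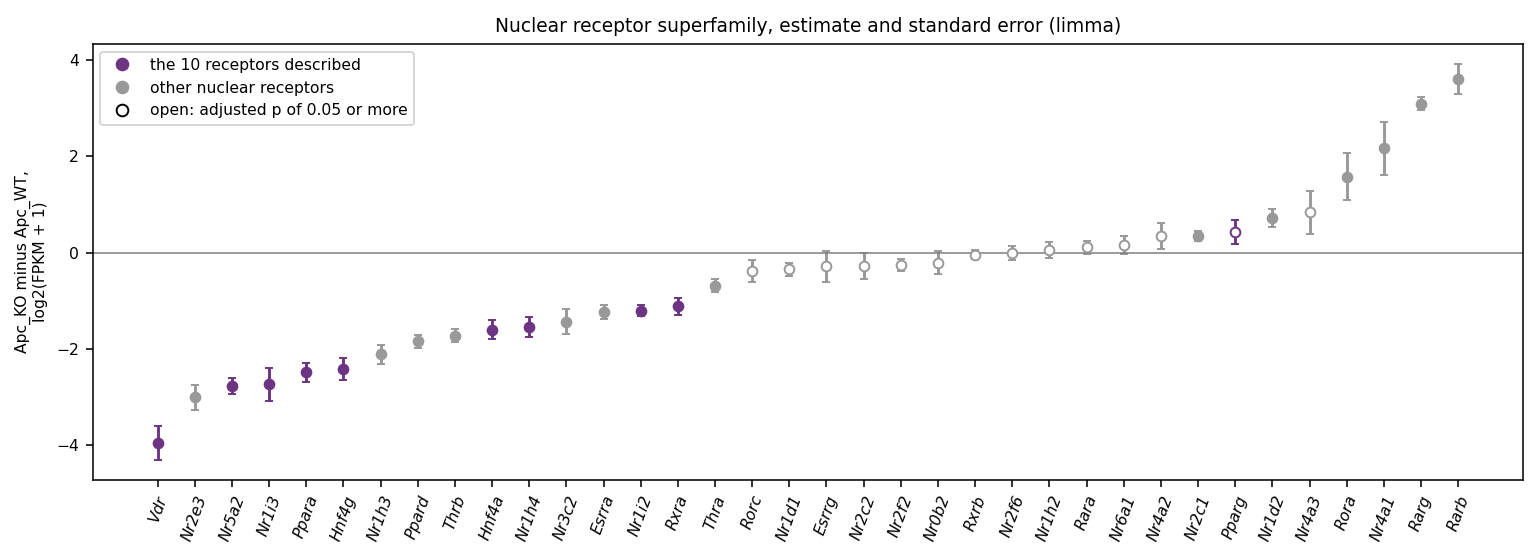
Difference between Apc_KO and Apc_WT in log2(FPKM + 1) with its standard error for the 10 receptors (purple) and 26 other nuclear receptors (grey), ordered by size, with open circles for an adjusted p of 0.05 or more. Vdr is at the low end at -3.95 and Rarb at the high end at 3.61.

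Known target genes were then read from lists of textbook targets, described by counts and medians. The counts of each list stand against 27.9% of all tested genes called higher and 17.7% called lower in Apc_KO against Apc_WT. Of 10 vitamin D target genes 6 were tested, and 3 were lower, 0 higher and 3 not called in Apc_KO against Apc_WT, with a median of -0.42. Trpv6, Trpv5 and S100g had no values, and Cyp3a11 is also in the list of PXR and CAR targets. Cyp3a11, a drug-metabolising cytochrome P450, had 0.683, 0.285, 0.342 and 0.468 FPKM in Apc_KO, 11.2, 6.73, 2.79 and 16.8 FPKM in Apc_HET, and 21.9, 20.7, 12.7 and 63.5 FPKM in Apc_WT. Its Apc_KO libraries were below all others, and it differed from Apc_WT by -4.16 ± 0.49 (SE, adjusted p = 2.38e-05). The manganese exporter Slc30a10 and the joined row of Cldn2, a claudin, were named after their values were seen. Slc30a10 differed by -1.66, and the row of Cldn2 by -0.46 with overlapping libraries. Cyp24a1, the enzyme that degrades calcitriol, was listed at 0 in all 4 Apc_KO libraries and at 0 to 0.213 FPKM in Apc_HET and 0 to 1.18 FPKM in Apc_WT, which is below the filter. Its deposited locus covered 13.2% of the gene. Among 4 tested genes of vitamin D supply, Cyp27a1, a sterol hydroxylase, was higher, with 60.0, 24.4, 25.2 and 71.4 FPKM in Apc_KO and 5.44 to 8.30 FPKM in Apc_WT (difference 2.46 ± 0.31 SE, adjusted p = 4.33e-05), and 3 were not called.

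Of 15 HNF4 target genes 14 were lower, 0 higher and 1 not called, with a median of -3.02. Sis, sucrase-isomaltase of the brush border, had 2.27, 11.6, 5.72 and 6.83 FPKM in Apc_KO, 90.3, 54.7, 27.4 and 147.4 FPKM in Apc_HET, and 87.0, 111.1, 97.5 and 253.0 FPKM in Apc_WT. Its Apc_KO libraries were lowest, and the difference from Apc_WT was -4.20 ± 0.53 (SE, adjusted p = 4.1e-05). In this list 8 of the 15 genes are also enterocyte markers. All 18 enterocyte markers were lower in Apc_KO than in Apc_WT, with a median of -2.68, and their summed level was 354 to 509 FPKM in Apc_KO, 849 to 2299 FPKM in Apc_HET and 1964 to 4841 FPKM in Apc_WT, with no marker at 0 throughout a genotype. The part of enterocyte RNA in the receptor and target values was not tested. The medians of Apc_HET minus Apc_WT were -0.88 for the HNF4 targets and -0.92 for the enterocyte markers, with 0 of them called by limma.

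Markers of other cell types that the sort could hold were counted in the same way for Apc_KO against Apc_WT. In that comparison 27.9% of all tested genes were called higher and 17.7% lower. Enteroendocrine markers were lower in 10 of 10 tested genes, with sums of 26.2 to 142 FPKM in Apc_KO, 569 to 796 FPKM in Apc_HET and 317 to 1308 FPKM in Apc_WT. Goblet markers were lower in 7 of 9 and higher in 1, a call that was lost with size factors, with quantile normalization and without Apc_KO replicates 2 and 3, with sums of 217 to 468 FPKM in Apc_KO, 1508 to 1682 FPKM in Apc_HET and 1402 to 2101 FPKM in Apc_WT. Paneth markers were higher in 2 and lower in 2 of 6, with sums of 1460 to 6415 FPKM in Apc_KO, 3734 to 6694 FPKM in Apc_HET and 5421 to 9278 FPKM in Apc_WT. In RNA of the sorted population, goblet and enteroendocrine markers were thus lower on balance and Paneth markers were mixed. Tuft markers were higher in 1 and lower in 4 of 6, with sums of 60.9 to 116 FPKM in Apc_KO, 19.6 to 40.9 FPKM in Apc_HET and 27.6 to 36.1 FPKM in Apc_WT. The tuft sums were set by 1 gene, Avil, which codes for an actin-binding protein, and without it they were 3.71 to 9.25 FPKM in Apc_KO, 13.98 to 29.9 FPKM in Apc_HET and 19.3 to 26.1 FPKM in Apc_WT. Of 10 stroma and endothelium markers 5 had values, and Pecam1, Kdr, Col1a2, Col3a1 and Des had none. Of the 4 tested, 3 were higher and 1 lower. Cdh5 was under 1 FPKM in every Apc_HET and Apc_WT library and passed the filter only through Apc_KO. The sums were 26.5 to 60.8 FPKM in Apc_KO, 5.98 to 9.78 FPKM in Apc_HET and 2.16 to 7.86 FPKM in Apc_WT. Without Cdh5, the gene of highest mean, they were 12.4 to 41.1 FPKM in Apc_KO, 5.98 to 9.77 FPKM in Apc_HET and 2.16 to 7.86 FPKM in Apc_WT. Leukocyte markers were higher in 1 and lower in 1 of 4, with sums of 97.0 to 151.7 FPKM in Apc_KO, 91.1 to 100.1 FPKM in Apc_HET and 86.8 to 90.97 FPKM in Apc_WT, mostly from 1 row that joins Cd68 with neighbouring genes such as Eif4a1. Stem cell markers were higher in 6 and lower in 2 of 12, with sums of 1042 to 1862 FPKM in Apc_KO, 5407 to 8614 FPKM in Apc_HET and 5697 to 6537 FPKM in Apc_WT. Without Olfm4 these sums were 960.2 to 1254 FPKM in Apc_KO, 713.7 to 960.5 FPKM in Apc_HET and 678.2 to 786.3 FPKM in Apc_WT. S phase and mitosis genes were lower in 1 of 11 with 10 not called, and their sums were 201.0 to 536.9 FPKM in Apc_KO, 405.7 to 443.5 FPKM in Apc_HET and 322.9 to 462.1 FPKM in Apc_WT. The last count of calls turned to 7 higher and 0 lower without Apc_KO replicates 1 and 4, and to 0 higher and 8 lower without replicates 2 and 3. No marker with values was at 0 throughout a genotype, and the part of these cells in the receptor values was not tested.

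The FXR targets gave 2 lower, 1 higher and 2 not called of 5, with a median of -0.69. Slc51a, which with Slc51b forms the basolateral bile acid exporter, had 0.563 to 1.30 FPKM in Apc_KO and 16.7 to 37.5 FPKM in Apc_WT. It differed by -3.52 ± 0.36 (SE, adjusted p = 7.14e-06), and Slc51b, named after its values were seen, by -2.15. Slc10a2, the apical bile acid transporter, was higher, with 32.5, 14.0, 8.80 and 12.1 FPKM in Apc_KO and 0.311 to 1.40 FPKM in Apc_WT, a difference of 3.16 ± 0.42 (SE, adjusted p = 7.21e-05). Nr0b2, the corepressor SHP and a target of both FXR and LRH-1, differed by -0.21 and was not called. The bile acid genes thus did not share 1 direction. The list does not record whether FXR activates or represses each gene, so the directions were not compared with that of Nr1h4.

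The PXR and CAR targets gave 8 lower, 0 higher and 4 not called of 12, with a median of -2.17, and their deepest fall was that of Cyp3a11 given above. The PPAR alpha targets gave 10 lower, 1 higher and 8 not called of 19, with a median of -0.69. Fabp1, a fatty acid binding protein that is also an enterocyte marker, had 20.3, 85.7, 41.2 and 72.4 FPKM in Apc_KO and 400.8 to 1218 FPKM in Apc_WT, a difference of -3.51 ± 0.60 (SE, adjusted p = 0.000491). Acadl, an acyl-CoA dehydrogenase of fat oxidation, was higher, with 53.3 to 90.7 FPKM in Apc_KO and 37.3 to 49.7 FPKM in Apc_WT, a difference of 0.63 ± 0.19 (SE, adjusted p = 0.0183) that was not called with size factors (0.51, adjusted p = 0.0525). The PPAR gamma targets gave 3 lower and 2 not called of 5. Of these 5, Plin2, Cd36 and Angptl4 are also in the PPAR alpha list, so the 2 counts are not separate. Pck1, a gluconeogenic enzyme, was at 1.24 to 2.38 FPKM in Apc_KO and 6.45 to 26.1 FPKM in Apc_WT. Its difference was -2.49 ± 0.32 (SE, adjusted p = 4.6e-05).

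The LRH-1 targets, of which 4 of 7 were tested, gave 1 higher and 3 not called. Cyp11a1, Cyp11b1 and Cyp8b1 had no values. The relation of these targets to the fall of Nr5a2 was not tested. Scarb1, a lipoprotein receptor, had 15.0, 21.8, 21.2 and 16.0 FPKM in Apc_KO and 3.57 to 5.52 FPKM in Apc_WT, a difference of 1.83 ± 0.17 (SE, adjusted p = 3.82e-06). Without Apc_KO replicates 1 and 4 the count was 3 higher. The LXR and retinoic acid receptor targets gave 7 higher, 3 lower and 1 not called of 11, with a median of 1.05. Rarb is in this list and also among the other nuclear receptors given above. The largest rise was that of Stra6, a retinol transporter, on a locus that covered 24.4% of the gene. It had 17.7, 12.3, 9.23 and 29.0 FPKM in Apc_KO, 0 to 0.0106 FPKM in Apc_HET and 0 to 0.0675 FPKM in Apc_WT. The difference between Apc_KO and Apc_WT was 4.02 ± 0.26 (SE, adjusted p = 1.89e-07). Stra6, Abcg1 and Cyp26b1 were under 1 FPKM in every Apc_HET and Apc_WT library. They passed the filter only through their Apc_KO libraries, so their order of genotypes was fixed by the filter. Abcg5, a sterol exporter, was lower, with 7.18 to 30.3 FPKM in Apc_KO and 47.3 to 112.2 FPKM in Apc_WT, a difference of -2.16 ± 0.37 (SE, adjusted p = 0.00045).

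Coregulators, the proteins through which receptors activate or repress, were mostly not called: 2 were higher, 3 lower and 12 not called of 17, with a median of -0.09. Over all tested genes 27.9% were called higher and 17.7% lower. Ppargc1b, a coactivator of mitochondrial and lipid genes, had 1.20, 1.58, 1.85 and 0.883 FPKM in Apc_KO and 8.67 to 9.84 FPKM in Apc_WT, a difference of -2.13 ± 0.14 (SE, adjusted p = 1.79e-07). With size factors the coregulators counted 2 higher and 7 lower, and with quantile normalization 3 and 6. Both scalings also gave more calls lower over all tested genes, as given above.

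**Figure D5:**
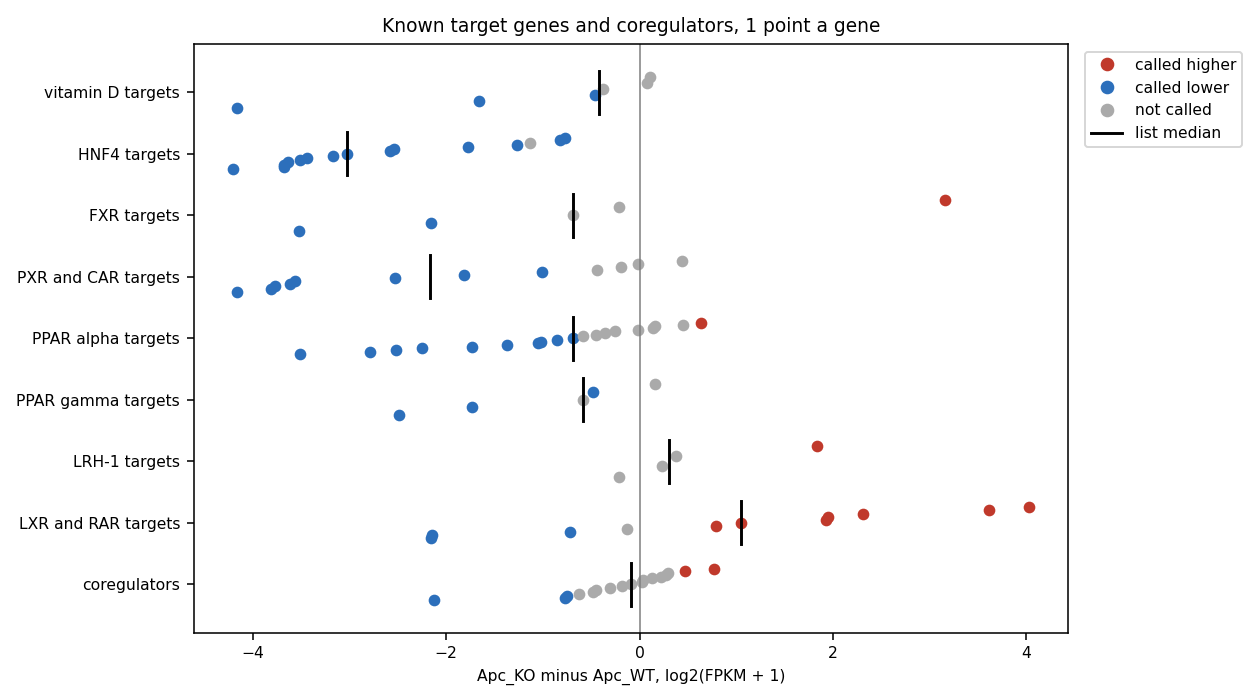
Difference between Apc_KO and Apc_WT in log2(FPKM + 1) for tested genes of each target list and for the coregulators, 1 point per gene, red for called higher, blue for called lower and grey for not called, with a black bar at the list median. HNF4 targets have a median of -3.02 and LXR and retinoic acid receptor targets one of 1.05.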

How the data were processed

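The authors deposited FPKM values, per the file headers, in 1 table of assembled loci for each of 12 libraries. Bowtie, TopHat, Cufflinks, Cuffdiff and the build mm10 (GRCm38) are named in the submitters' processing notes, and versions, annotation and any scaling between libraries are not given in the sources used here. FPKM relate fragments to transcript length and library total, so a large change in some genes moves the rest. Libraries were described as coming from separate mice, with no batch or pairing stated. Loci were summed per symbol. Of 14499 symbols, 295 with differing loci and 122 with failed estimates were left out, which left 14082. Values were tested as log2(FPKM + 1) with limma 3.58.1 in R 4.3.3 (lmFit, contrasts.fit, eBayes with trend) in 1 fit of all 12 libraries, after keeping the 12962 symbols with at least 1 FPKM in at least 4 libraries. All 10 receptors passed. A gene under 1 FPKM in all Apc_HET and Apc_WT libraries passed only with all 4 Apc_KO libraries at 1 FPKM or more. For such genes the filter fixed the order of the genotypes, and a call of higher is not independent of it. Tests were two-sided, adjusted by Benjamini-Hochberg over all tested symbols within each comparison, and called at an adjusted p under 0.05. Comparisons share libraries and are not independent. The procedure was also run on simulated data, but no outcome is given here, so that run adds nothing to the calls.

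The members and lists were chosen with earlier results of these data known. The text names, from each receptor, target and coregulator list, the called gene that rose most and the one that fell most, given separate genotypes and a mean of 5 FPKM or more in the higher one (up to 5 each way for other nuclear receptors). Some genes that this rule picks are not reported here. From marker lists counts and sums are given, and single markers are named where they check the sort or set a sum. Genes named after their values were seen are marked as such or given as not called. Motifs were searched in RefSeq promoter windows, and gene spans came from GENCODE. Alternatives were 2 other scalings, pseudocount 0.1, no filter, a filter of 5 FPKM, fits of 2 genotypes, library weights, a replicate block, 1 locus per symbol and leaving out libraries.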

Additional observations from a re-analysis of the deposited data

Results flagged for a closer look

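None of the 10 receptors had a library that stood apart from its genotype by Dixon's test at 95%. Among the other genes named here 7 gene and genotype pairs did, and chance flags about 1 in 20 groups. Apc_WT replicate 4 had 253.0 FPKM of Sis, against 87.0 to 111.1 FPKM in the other Apc_WT libraries, and 1218 FPKM of Fabp1, against 400.8 to 450.7 FPKM. It also had 24.65 FPKM of Slc51b, against 5.71 to 6.83 FPKM, and 79.05 FPKM of the row that joins Cd68 with Eif4a1, against 84.03 to 84.68 FPKM. The same library had the highest summed enterocyte markers and the highest Nr1i3, 23.5 FPKM. Apc_HET replicate 4 was the Apc_HET library with Stra6 above 0, at 0.01056 FPKM, where the other 3 were listed at 0. Apc_WT replicate 1 had 1.179 FPKM of Cyp24a1, where the other 3 Apc_WT libraries were listed at 0. Apc_KO replicate 4 had 106.7 FPKM of Avil, against 53.4 to 59.4 FPKM in the other Apc_KO libraries.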

How the results depend on the processing

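The 9 receptors called lower in Apc_KO, against Apc_WT and against Apc_HET, remained called lower under all 23 alternatives, 2 of which (without Apc_KO replicates 1 and 4, and without replicates 2 and 3) were chosen after seeing the data. For Vdr, Apc_KO minus Apc_WT ranged from -4.75 to -3.15 over them. Pparg decided the count of receptors called higher. Against Apc_WT it was 0 or 1 when 1 library was left out (1 without Apc_KO replicate 3, Pparg 0.65), and 1 without replicates 2 and 3, while Pparg reversed to -0.06267 without replicates 1 and 4. Against Apc_HET the count of 1 was 0 or 1 when 1 library was left out, 0 without Apc_KO replicates 1 and 4, and 0 with size factors, quantile normalization, pseudocount 0.1, no filter, a filter of 5 FPKM, the fit of 2 genotypes and library weights. Its adjusted p ranged from 0.0004275 to 0.4856, and the cause was not tested. Between Apc_HET and Apc_WT, uncalled values near 0 reversed: Hnf4a to -0.0002527 and Nr1i2 to -0.02271 with size factors, Nr1i2 to -0.02771 without Apc_WT replicate 3, and Ppara to 0.02151, 0.1689, 0.03394 and 0.02742 without Apc_HET replicates 2 and 3 and Apc_WT replicates 1 and 4 (leave-one-out range -0.1375 to 0.1689).

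The replicate block changed no receptor's call, with 9 lower and 0 higher against Apc_WT. Deviations of each library from its genotype mean were correlated across genes between same-numbered libraries. These correlations were -0.195 to 0.18, over 0.1 in 3 of 12 pairs. Those 3 joined Apc_KO with Apc_WT, at 0.18, 0.12 and 0.15, and the remaining pair of that kind was at -0.103. Differently numbered libraries reached 0.249. These values do not settle whether the numbers pair the libraries, and no pairing was stated. Scaling moved the median of all genes from 0.12 to 0.01 (size factors) and -0.02 (quantile), and the share of calls that were higher from 61.2% to 50.3% and 47.6%. Depth was not stated, and low FPKM values are the least certain. A rough estimate of depth relative to Apc_WT replicate 1 was 0.432 to 0.763 in Apc_KO and 0.742 to 0.877 in Apc_HET. It was 0.532 to 0.742 in the remaining Apc_WT libraries, which overlaps with Apc_KO. The effect of depth on the low Apc_KO values was not tested.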
